A study of Mus musculus with 24 samples.

Results

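Cytosolic ribosomal protein genes were followed over the day in mouse heart. Members were all genes whose symbol is Rpl or Rps followed by a digit, or starts with Rplp, without the Rps6k kinases and the symbols marked -ps. They number 68 of the 22180 genes measured by a probe set that names 1 gene: 22 genes of the small subunit, 32 of the large subunit, 3 of the P-stalk, 8 paralogs and 3 others. The others are Rps19bp1, which encodes a binding partner of Rps19 and no ribosomal protein, Rpl6l, a pseudogene in RefSeq, and Rpl32l. Of 79 ribosomal proteins listed for mammals, 57 were among the members. Another 14 symbols of the rule, 12 of them listed ribosomal proteins such as Rpl10, Rps2 and Rpl13a, stand only on probe sets shared with other genes and were not analysed here. Rpsa and Fau, small subunit genes under other names, fall outside the rule, and their 24-h amplitudes were 0.0058 ± 0.026 and 0.033 ± 0.025 (SE) on the log2 scale.

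The cytosolic ribosome builds every protein that a heart muscle cell makes outside its mitochondria, and its protein parts are encoded by the Rps genes of the small subunit, the Rpl genes of the large subunit and the Rplp genes of the P-stalk. The small subunit decodes the mRNA, the large subunit forms the peptide bond, and the P-stalk recruits the GTPases that drive elongation. Most ribosomal protein mRNAs start with a run of pyrimidines, the 5′ terminal oligopyrimidine motif, through which mTORC1 and its effector LARP1 control their translation.

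The samples are hearts, labelled myocardium, from wild-type C57Bl/6 males aged 8 weeks that lived under 12 h of light and 12 h of darkness. By their labels the 6 groups differ in collection time alone: zeitgeber time (ZT, hours after lights-on) 3, 7 and 11 in the light, and 15, 19 and 23 in the dark. Each group holds 4 samples called biological replicates, each on 1 Affymetrix array, which makes 24 arrays, 12 by day and 12 by night. Only wild-type mice in this light cycle were analysed here, so an effect of light or feeding and one of the internal clock cannot be told apart, and each time was sampled in 1 cycle only. The labels do not say how many animals went into a sample, and p-values measure the spread between these samples.

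Each value is a log2 difference from the probe set's own median over the 24 arrays, averaged over a gene's probe sets, so it shows change between arrays and no level. Levels of different genes could therefore not be compared, and neither the absence of a transcript nor that of a cell type could be checked. Base 2 and the direction, with higher read as more RNA, are assumptions, since neither is stated. The SD over all genes ran from 0.10 to 0.17 per array, and replicate 1 at ZT15, replicate 4 at ZT23 and replicate 4 at ZT07 had the largest. In bulk tissue, fewer cells of a type and less RNA per cell cannot be told apart.

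Ribosomal protein transcripts stayed close to their medians through the day as a group. The mean over the 68 members was -0.00029 ± 0.041 at ZT03, -0.0042 ± 0.013 at ZT07 and 0.0078 ± 0.032 at ZT11 (SD over 4 arrays). In the dark it was 0.025 ± 0.045 at ZT15, 0.0061 ± 0.044 at ZT19 and -0.010 ± 0.021 at ZT23. Each of the 6 time means over all members was nearer to 0 than its own SD. This did not hold for the small subunit alone at ZT07 and ZT23, or for the large subunit alone at ZT07. Between 23 of 68 members (ZT07 replicate 2) and 52 of 68 (ZT03 replicate 3) stood above 0 on an array, against 46.9 to 54.3% of all genes. ZT15 replicate 1 had the highest mean of the members, 0.090, the widest spread among them, with an SD of 0.20, and 50 members above 0. Its values ran from -0.78 in Rpl10a to 0.55 in Rps12.

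**Figure D1:**
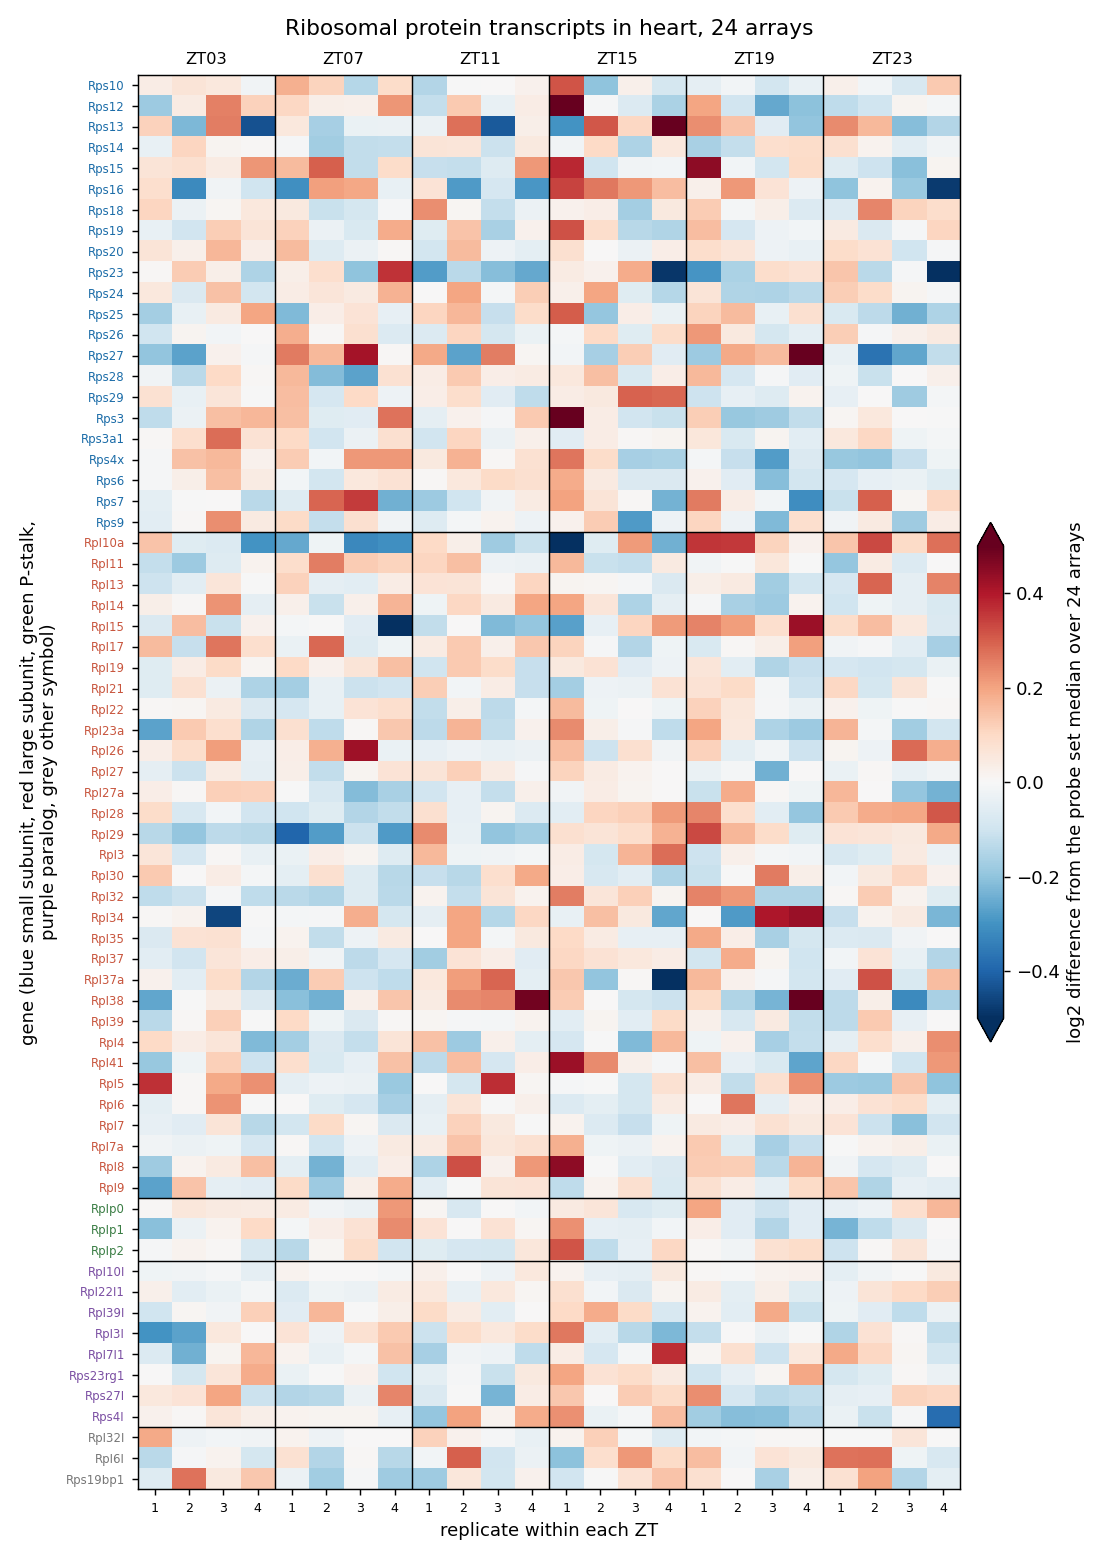
Log2 difference from the probe set median (colour, cut at 0.5 in each direction) of 68 ribosomal protein genes (vertical axis, in the order of their roles) on 24 arrays (horizontal axis, 4 replicates at each of 6 zeitgeber times). Most cells lie near 0, single arrays such as ZT15 replicate 1 stand out over many genes, and Rpl29 runs from blue by day to red by night.

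The subunits gave means of either sign, and at ZT07 they stood on opposite sides of 0 on all 4 arrays. There the mean per array ran from 0.0026 to 0.069 in the small subunit and from -0.040 to -0.028 in the large subunit. The mean over all members pools these, and the difference between subunits was not tested. Small subunit members averaged 0.017 ± 0.059 at ZT03, 0.037 ± 0.031 at ZT07 and -0.0064 ± 0.040 at ZT11 (SD, n = 4). In the dark they averaged 0.039 ± 0.080 at ZT15, -0.0069 ± 0.057 at ZT19 and -0.036 ± 0.036 at ZT23. Large subunit members averaged -0.012 ± 0.038 at ZT03, -0.035 ± 0.0053 at ZT07 and 0.022 ± 0.027 at ZT11. Their means in the dark were 0.0079 ± 0.026 at ZT15, 0.023 ± 0.045 at ZT19 and 0.0051 ± 0.020 at ZT23. In night against day, the mean of ZT15, ZT19 and ZT23 minus that of ZT03, ZT07 and ZT11, the median was -0.026 over the 22 small subunit members, 9 of them above 0, and 0.0069 over the 32 large subunit members, 17 of them above 0. Over all 68 members 34 were above 0 and 34 below, with a median of -0.00019, beside 0.0021 over all genes.

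A 24-h rhythm was found in 3 of 68 members: Rpl29, Rps4x and Rpl15 (limma, cosine and sine terms over 24 arrays, Benjamini-Hochberg adjusted p below 0.05 over all genes). Left out in turn, an array moved this count between 1, Rpl29 alone without ZT07 replicate 4, and 4, without ZT15 replicate 1 or ZT19 replicate 4. Over all genes tested 7.61% were called, which the members' share of 4.41% does not exceed. At an unadjusted p below 0.05 there were 9 members, or 13.2%, beside 19.5% of all genes. The amplitude, the peak minus the mean of the fitted curve, had a median of 0.045 in the members and 0.040 over all genes. By role the median was 0.049 in the small subunit, 0.047 in the large subunit, 0.045 in the P-stalk and 0.034 in the paralogs. The SD within a time, pooled over the 6 times, had medians of 0.122, 0.108, 0.102 and 0.105 in the same order. A fitted amplitude cannot fall below 0 and grows with this spread, and differences between roles were not tested. The fitted peak exceeded the trough by over 1.2-fold in 5 of 68 members (7.35%) and in 7.36% of all genes. No member passed 1.5-fold, which 0.825% of all genes did.

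**Figure D2:**
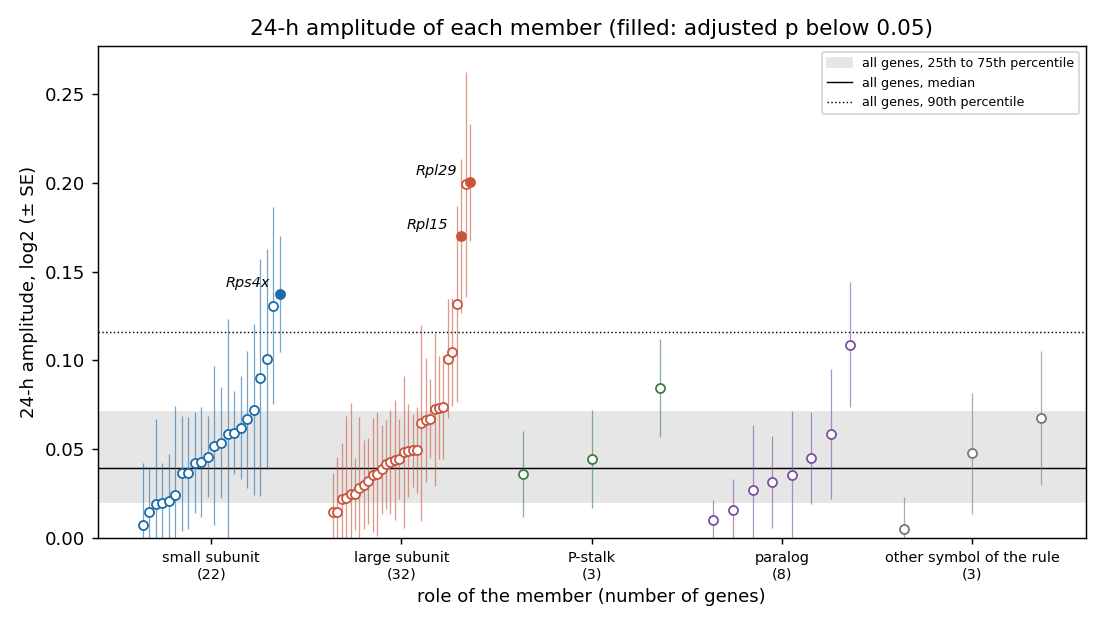
Amplitude of the fitted 24-h curve (vertical axis, log2, bars SE) for each member, sorted within its role (horizontal axis), with filled points for an adjusted p below 0.05. Lines and shading give the median (0.040), quartiles and 90th percentile (0.12) over all genes. Only Rpl29, Rpl15 and Rps4x are filled, and 6 of 68 members lie above the 90th percentile.

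Rpl29, a small basic protein of the large subunit also known as a heparin-binding protein, had the clearest daily course, low by day and high by night. Rpl29 in replicates 1 to 4 was -0.14, -0.19, -0.13 and -0.14 at ZT03, -0.40, -0.28, -0.11 and -0.28 at ZT07, and 0.24, -0.037, -0.20 and -0.17 at ZT11. After lights-off it read 0.078, 0.065, 0.087 and 0.17 (ZT15), 0.33, 0.16, 0.093 and -0.060 (ZT19), and 0.067, 0.061, 0.047 and 0.19 (ZT23). All 12 night arrays lay above the day median of -0.16, 11 of the 12 stood above 0, and among the 12 day arrays only ZT11 replicate 1 stood above 0. The phases overlap through ZT11 replicates 1 and 2 and ZT19 replicate 4. Its amplitude was 0.20 ± 0.033 (SE), a 1.32-fold rise from trough to a peak at ZT 18.3 (adjusted p = 0.000847). Night exceeded day by 0.26 ± 0.047 (SE, adjusted p = 0.00181). The gene has 2 probe sets with different values, and both passed the rhythm test fitted on probe sets, with amplitudes of 0.19 (adjusted p = 0.0108) and 0.21 (adjusted p = 0.0344). Both calls, rhythm and night against day, held without each of the 24 arrays in turn, with adjusted p of at most 0.00288 and 0.00419.

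Rps4x, the X-linked gene of a small subunit protein, ran the other way and was highest in the light. Rps4x in replicates 1 to 4 was -0.0045, 0.15, 0.16 and 0.022 at ZT03, 0.13, -0.013, 0.22 and 0.22 at ZT07, and 0.050, 0.17, 0.0045 and 0.074 at ZT11. By night its arrays gave 0.27, 0.093, -0.17 and -0.16 (ZT15), -0.0091, -0.12, -0.28 and -0.070 (ZT19), and -0.19, -0.20, -0.12 and -0.021 (ZT23). All day arrays were between -0.013 and 0.22, and 9 of 12 night arrays lay below the lowest of them, while ZT15 replicate 1, at 0.27, was the highest array of all. The amplitude was 0.14 ± 0.032 (SE), 1.21-fold, with a peak at ZT 8.09 (adjusted p = 0.0228). The night minus day difference was -0.18 ± 0.047 (SE, adjusted p = 0.0316). The rhythm call was lost without ZT07 replicate 4 or ZT19 replicate 3, with adjusted p up to 0.0557. The night against day call was lost without any 1 of 10 arrays (ZT03 replicates 2 and 3, ZT07 replicates 3 and 4, ZT11 replicate 2, ZT15 replicates 3 and 4, ZT19 replicate 3, ZT23 replicates 1 and 2), with adjusted p from 0.00403 to 0.0601 over all 24 arrays left out in turn.

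Rpl15, a core large subunit protein whose human gene is mutated in some cases of Diamond-Blackfan anaemia, was highest in the middle of the night. Rpl15 in replicates 1 to 4 was -0.071, 0.15, -0.11 and 0.020 at ZT03, -0.0087, -4.1e-05, -0.056 and -0.51 at ZT07, and -0.12, 4.1e-05, -0.22 and -0.19 at ZT11. The dark arrays held -0.27, -0.039, 0.11 and 0.21 (ZT15), 0.25, 0.21, 0.082 and 0.43 (ZT19), and 0.091, 0.16, 0.054 and -0.071 (ZT23). The 4 arrays at ZT19 were all above 0, the other dark times straddled 0, and ZT07 replicate 4 was far below its group. The mean was -0.14 ± 0.25 at ZT07 and 0.24 ± 0.14 at ZT19 (SD, n = 4), but that contrast missed the threshold (difference 0.39 ± 0.11, SE, adjusted p = 0.0755). The 24-h amplitude was 0.17 ± 0.043 (SE), 1.27-fold, with a peak at ZT 20.2 (adjusted p = 0.0386). This call was lost without any 1 of 10 arrays (ZT07 replicate 4, ZT11 replicates 1, 3 and 4, ZT15 replicate 3, ZT19 replicates 1, 2 and 4, ZT23 replicates 1 and 2), with adjusted p from 0.0150 to 0.0842 over the 24. Night minus day was 0.19 ± 0.062 (SE, adjusted p = 0.0824), past the threshold without ZT15 replicate 1 (adjusted p = 0.0258).

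Rpl28, a large subunit protein that budding yeast lacks, was higher by night than by day. Rpl28 in replicates 1 to 4 was 0.090, -0.080, -0.013 and -0.097 at ZT03, -0.099, -0.062, -0.15 and -0.12 at ZT07, and 0.080, -0.039, 0.013 and -0.066 at ZT11. Values in the dark were -0.052, 0.11, 0.12 and 0.21 (ZT15), 0.24, 0.085, -0.052 and -0.19 (ZT19), and 0.13, 0.18, 0.19 and 0.31 (ZT23). All 4 arrays at ZT23 exceeded every day array, while ZT19 spread from the lowest value of all 24 arrays to the second highest. Night exceeded day by 0.15 ± 0.041 (SE, adjusted p = 0.0357), and the rhythm missed the threshold (amplitude 0.10 ± 0.034, peak ZT 20, adjusted p = 0.154), which it passed without ZT19 replicate 4 (amplitude 0.13, adjusted p = 0.0135). The night call was lost without any 1 of 15 arrays (ZT03 replicates 2 to 4, ZT07 replicates 1, 3 and 4, ZT11 replicates 2 to 4, ZT15 replicates 2 to 4, ZT19 replicates 1 and 2, ZT23 replicate 4), with adjusted p from 0.00680 to 0.0653 over the 24.

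**Figure D3:**
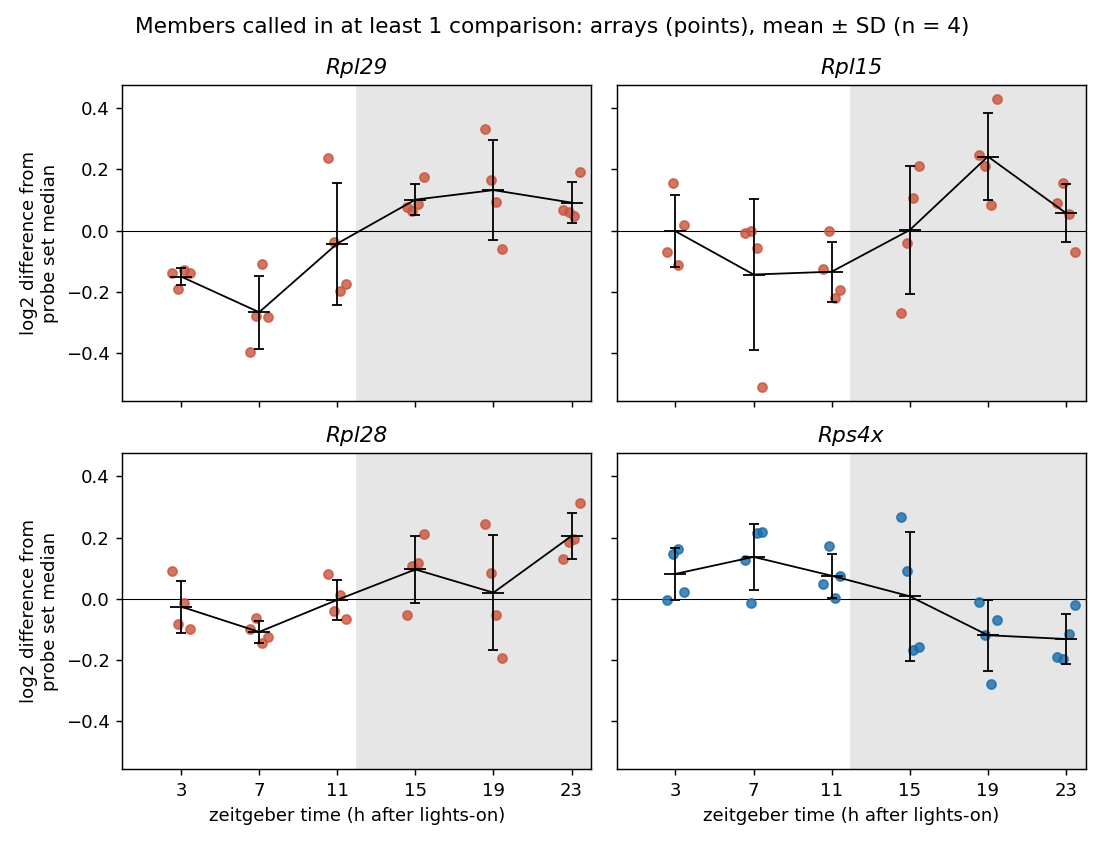
Log2 difference from the probe set median (vertical axis) of the 4 members that passed a test, by zeitgeber time (horizontal axis, hours, grey for the dark), with points for arrays and mean ± SD (n = 4). Rpl29 rises from -0.27 at ZT07 to 0.13 at ZT19, Rps4x runs from 0.14 at ZT07 to -0.13 at ZT23, and Rpl15 and Rpl28 reach their highest means at ZT19 (0.24) and ZT23 (0.21).

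In the 30 bases around a start site, from 10 bases before to 20 after the RefSeq transcript start (GRCm38.p6), the pyrimidine runs of this gene class can be read directly. RefSeq promoter entries matched 53 of the 68 members, and not Rpl29. The longest run of C and T is in capitals where it has at least 5 bases. Rpl15, Rpl28 and Rps4x are shown because they passed a test, Rps6 (the substrate of S6 kinase), Rps18 and Rpl35 as subunit genes that did not, and Rpl3l as the muscle paralog. Positions are chr14:18270967-18270996 (minus strand) for Rpl15, chr7:4792955-4792984 (plus strand) for Rpl28 and chrX:102189372-102189401 (minus strand) for Rps4x. For the others they are chr4:86857348-86857377 (minus strand) in Rps6, chr17:33955646-33955675 (minus strand) in Rps18, chr2:39005112-39005141 (minus strand) in Rpl35 and chr17:24727816-24727845 (plus strand) in Rpl3l, at the first of its 2 starts.
Rpl15: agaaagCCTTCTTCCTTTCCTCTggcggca
Rpl28: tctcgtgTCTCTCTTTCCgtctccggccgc
Rps4x: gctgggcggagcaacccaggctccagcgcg
Rps6: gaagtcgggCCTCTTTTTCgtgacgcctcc
Rps18: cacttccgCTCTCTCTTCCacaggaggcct
Rpl35: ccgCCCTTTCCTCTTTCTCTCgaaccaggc
Rpl3l: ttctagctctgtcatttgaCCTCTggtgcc

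The longest run in this window is 17 bases in Rpl15, 11 in Rpl28 and Rps18, 10 in Rps6, 18 in Rpl35, 5 in Rpl3l and 4 in Rps4x. The window rests on the RefSeq start. Whether RNA starts there in heart, and whether the probe sets detect that RNA, was not tested. A run of at least 5 C or T on the sense strand stood in this window in 37 of 53 members (69.8%). Among subunit and P-stalk members it stood in 30 of 44 (68.2%), so Rps4x was not alone in lacking one. The share was 50.1% of 16990 measured genes with an entry. A run of at least 8 stood in 22 of 53 members (41.5%) and in 13.0% of these genes. In the window from 250 bases before to 50 after the start, CCGGAAG, the core of an ETS factor motif, was found on either strand in 22 of 53 members (41.5%) and in 12.7% of all. On the sense strand the reverse complement of CCGGAAG shares 5 bases with a C or T run. CACGTG, the E-box to which the clock activators bind, was found in 4 of 53 members (Rpl14, Rpl19, Rpl34 and Rps19, 7.55%) and in 9.19% of all genes. None of these 4 passed limma's rhythm test, and 1, Rpl19, had an unadjusted p below 0.05, with Rps19 at an amplitude of 0.0077 ± 0.035, Rpl34 at 0.065 ± 0.055, Rpl14 at 0.074 ± 0.029 and Rpl19 at 0.067 ± 0.022 (SE).

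Of the small subunit, Rps4x was the only 1 of 22 members called, and the next largest amplitudes did not pass. Rps16 was at 0.13 ± 0.055 (SE, adjusted p = 0.335). Its 4 arrays at ZT15 averaged 0.24 ± 0.077, above -0.087 ± 0.17 at ZT03 and -0.21 ± 0.20 at ZT23 (SD). Rps27, a zinc-finger protein, had 0.10 ± 0.062, Rps13 0.090 ± 0.067 and Rps12 0.072 ± 0.048 (SE, adjusted p from 0.628 to 0.736). Their replicates scattered widely: the SD within a time was 0.26 in Rps13, the highest of all members, and 0.20 in Rps27. The flattest were Rps19, a gene of Diamond-Blackfan anaemia in humans, with 0.0077 ± 0.035, and Rps26 with 0.015 ± 0.025.

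Of the large subunit, Rpl10a, which forms the L1 stalk at the tRNA exit side, had an amplitude close to that of Rpl29 and did not pass (0.20 ± 0.063, SE, peak ZT 21.3, adjusted p = 0.128). Rpl10a in replicates 1 to 4 was 0.14, -0.061, -0.069 and -0.30 at ZT03, -0.26, -0.022, -0.32 and -0.31 at ZT07, and 0.10, 0.029, -0.18 and -0.11 at ZT11. At night it stood at -0.78, -0.060, 0.21 and -0.24 (ZT15), 0.36, 0.35, 0.11 and 0.022 (ZT19), and 0.14, 0.33, 0.095 and 0.28 (ZT23). ZT19 and ZT23 were above 0 on all 8 arrays, and ZT15 replicate 1 was the lowest of the 24. Without that array the amplitude was 0.21 and passed (adjusted p = 0.0107), as it did without the 3 arrays of largest SD (0.19, adjusted p = 0.0415). Rpl38, known for its role in the translation of Hox mRNAs in the embryo, had 0.13 ± 0.055 with a peak at ZT 12.6 (adjusted p = 0.327). Rpl32, often used as a reference transcript, had 0.10 ± 0.030 with a peak at ZT 17.1 (adjusted p = 0.0803), and passed without ZT19 replicate 3 (adjusted p = 0.0176) or replicate 4 (adjusted p = 0.0168). At the other end, Rpl39, which lines the exit tunnel, had 0.015 ± 0.022 and Rpl13 0.015 ± 0.031. The Rpl13 value averages 2 probe sets of nearly opposite phase and is flatter than either. Their amplitudes were 0.064 ± 0.030 (peak ZT 9.45) and 0.061 ± 0.056 (SE, peak ZT 23.3). Neither passed the rhythm test fitted on probe sets (adjusted p = 0.427 and 0.827).

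None of the 3 P-stalk genes passed limma's rhythm test, and 1 did at an unadjusted p below 0.05. That gene was Rplp1, with 0.085 ± 0.027 (SE), a peak at ZT 9.99 and an adjusted p of 0.139. Rplp1 in replicates 1 to 4 was -0.21, -0.029, 0.019 and 0.10 at ZT03, -0.010, 0.031, 0.073 and 0.24 at ZT07, and 0.067, 0.0020, 0.072 and 0.0088 at ZT11. In the dark phase came 0.23, -0.041, -0.045 and -0.013 (ZT15), 0.033, -0.056, -0.14 and -0.057 (ZT19), and -0.23, -0.13, -0.071 and 0.0016 (ZT23). ZT23 was lowest and ZT07 highest by the mean, with overlapping arrays. Its 2 probe sets differed: 1 had an amplitude of 0.11 ± 0.027 (adjusted p = 0.0234 over probe sets) and the other 0.076 ± 0.039 (adjusted p = 0.506). Its stalk partner Rplp2 had 0.045 ± 0.027 and Rplp0, the anchor of the stalk, 0.036 ± 0.024.

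In night against day, 3 of 68 members passed, beside 4.39% of all genes: Rpl29 and Rpl28 were higher at night (higher calls over all genes 1.89%) and Rps4x was lower (2.49%). At an unadjusted p below 0.05 there were 10 members, beside 16.4% of all genes, 5 of them higher (7.56% of all genes) and 5 lower (8.86%). Differences ran from -0.18 in Rps4x to 0.26 in Rpl29. The 95% interval of the difference lay within 1.2-fold in either direction for 63 of 68 members (92.6%, all genes 94.0%), with Rpl10a, Rpl15, Rpl29, Rps13 and Rps4x outside, and within 1.5-fold for all 68. Either bound lay a median of 0.093 from the difference, from 0.035 in Rpl10l to 0.20 in Rps13. Left out in turn, an array moved the count between 1 and 6: Rpl29 alone remained without ZT03 replicate 2 or 3, ZT07 replicate 3 or 4, ZT11 replicate 2, or ZT15 replicate 3 or 4. Without ZT15 replicate 1 there were 6, with Rpl10a and Rpl15 higher and Rps6 lower beside the 3.

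**Figure D4:**
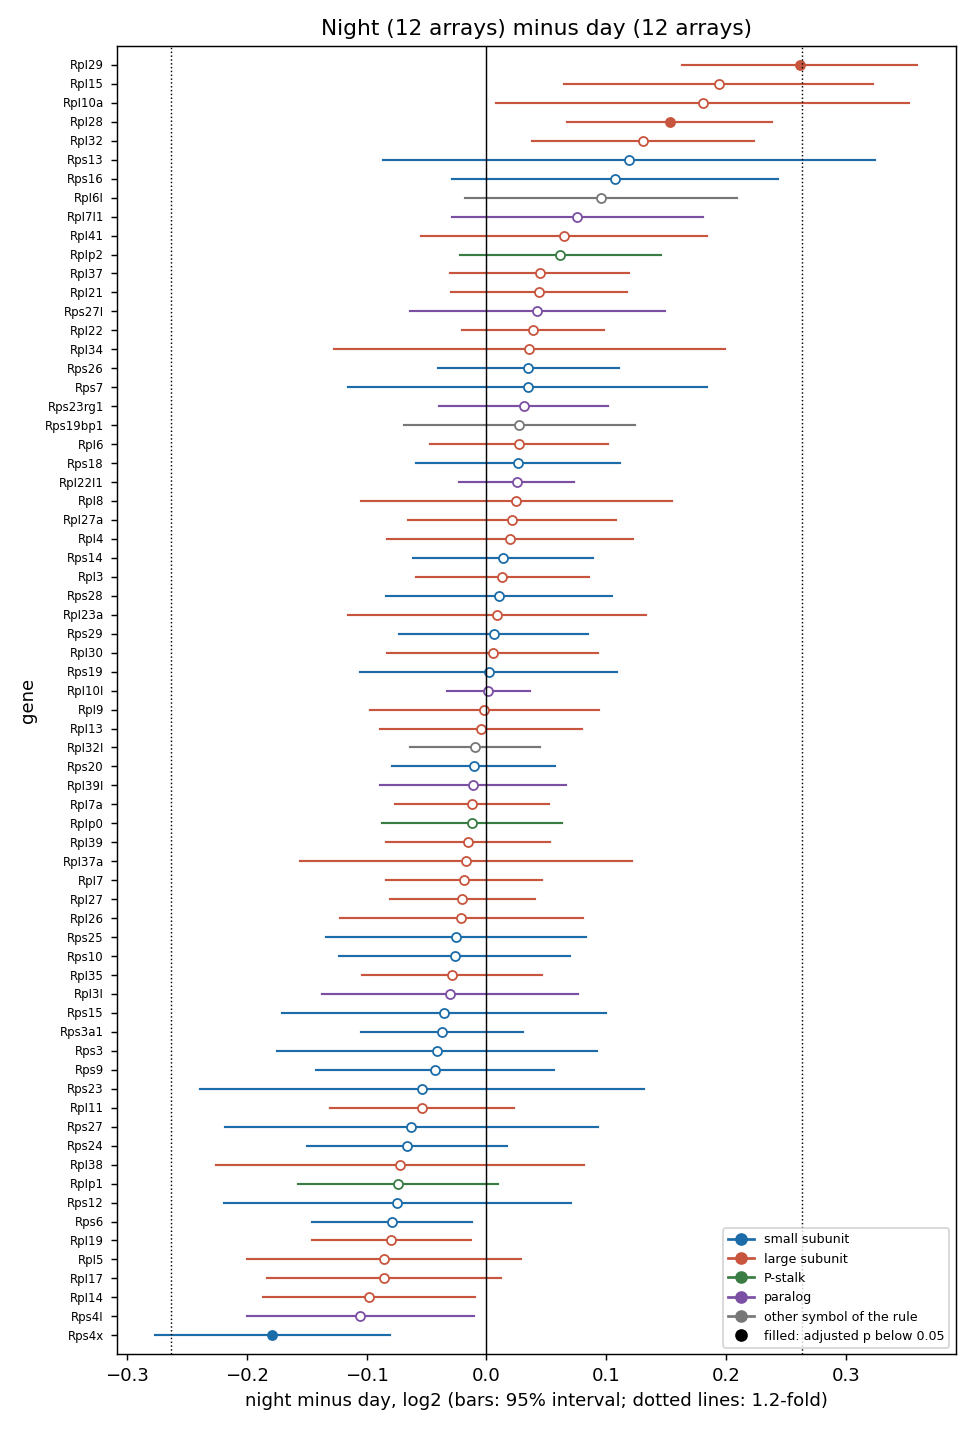
Night (12 arrays) minus day (12 arrays), log2, with its 95% interval (horizontal axis), for each of the 68 members (vertical axis, sorted), filled where the adjusted p is below 0.05. Dotted lines mark 1.2-fold. The values run from -0.18 in Rps4x to 0.26 in Rpl29, and most intervals span 0.

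The other contrasts called few members. Any difference among the 6 times was called for 1 of 68, Rpl29 (adjusted p = 0.0118), beside 4.72% of all genes, and at an unadjusted p below 0.05 for 11, beside 16.8%. This count was 3 without ZT15 replicate 1 (with Rpl28 and Rps4x), and 2 without ZT07 replicate 1 (with Rps16), ZT11 replicate 1 (with Rps4l), ZT15 replicate 3 (with Rpl10a), or ZT19 replicate 1 or 4 (with Rpl28). Of the opposite times, ZT19 against ZT07 called 1 member, beside 1.59% of all genes: Rpl29 was higher at ZT19 by 0.40 ± 0.082 (SE, adjusted p = 0.0131). Without ZT19 replicate 1 no member passed there (Rpl29 adjusted p = 0.0521), and without ZT15 replicate 1 there were 3, with Rpl10a and Rpl15. Taken from its probe set of larger SD alone, Rpl29 passed neither of these tests (adjusted p = 0.209 and 0.177). Without the 3 arrays of largest SD, Rpl29 missed the threshold for any time difference (adjusted p = 0.0570) and Rpl15 passed it (adjusted p = 0.0376). At an unadjusted p below 0.05, ZT19 against ZT07 held 10 members (13.1% of all genes), among them Rpl10a at 0.44 ± 0.14 and Rps4x at -0.26 ± 0.082.

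Dusk against dawn, the mean of ZT11 and ZT15 minus that of ZT23 and ZT03, called 0 members in limma, beside 3.76% of all genes. At an unadjusted p below 0.05 there were 5 (13.8% of all genes), all higher at dusk (7.39%): Rpl38 at 0.23 ± 0.090, Rps16 at 0.20 ± 0.080, and Rps4l, Rplp1 and Rpl27 (SE, adjusted p from 0.227 to 0.355). ZT15 against ZT03 called 0, beside 3.06%, and 6 at an unadjusted p below 0.05 (12.9% of all genes), with Rps16 at 0.33 ± 0.11 and Rpl29 at 0.25 ± 0.082. Rpl29 passed there without ZT11 replicate 1 (adjusted p = 0.0406). ZT23 against ZT11 called 0, beside 2.72%, and 6 at an unadjusted p below 0.05 (13.6% of all genes), with Rpl38 at -0.40 ± 0.13, which passed without ZT19 replicate 4 (adjusted p = 0.0399). These contrasts share arrays with night against day.

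None of the 8 measured paralogs passed limma's rhythm test, and 1, Rps4l, did at an unadjusted p below 0.05 (0.11 ± 0.035, SE, peak ZT 9.65, adjusted p = 0.136). Rps4l passed without ZT11 replicate 1 (amplitude 0.13, adjusted p = 0.0304). Rps4l, a transcribed pseudogene in RefSeq, averaged -0.19 ± 0.032 at ZT19 and 0.084 ± 0.13 at ZT15 (SD, n = 4). Rpl3l, which replaces Rpl3 in heart and skeletal muscle ribosomes, had 0.059 ± 0.036 (SE, adjusted p = 0.635). Rpl3l in replicates 1 to 4 was -0.30, -0.27, 0.051 and 0.0039 at ZT03, 0.069, -0.025, 0.075 and 0.13 at ZT07, and -0.11, 0.093, 0.051 and 0.092 at ZT11. The night arrays read 0.26, -0.052, -0.14 and -0.22 (ZT15), -0.12, 0.0035, -0.030 and -0.0035 (ZT19), and -0.15, 0.074, 0.0069 and -0.12 (ZT23). The spread within a time was widest at ZT15, and the day and night groups overlapped throughout.

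The rest were flatter still, with amplitudes of 0.010 ± 0.011 in Rpl10l, a testis gene, 0.016 ± 0.017 in Rpl22l1, 0.027 ± 0.037 in the p53 target Rps27l, 0.032 ± 0.026 in the retroposed Rps23rg1, 0.036 ± 0.036 in Rpl7l1 and 0.045 ± 0.026 in Rpl39l (SE). None of the 5 tested pairs of paralog and parent passed a test of its own. Rps4l, Rps23rg1 and Rpl10l were not tested in a pair. Rps4l peaked at ZT 9.65 and the called Rps4x at ZT 8.09, with night minus day of -0.11 and -0.18. The difference paralog minus parent was compared between 12 night and 12 day arrays in 5 pairs, by a two-sided permutation test with 100000 resamples, adjusted over the pairs. Night minus day was -0.044 for Rpl3l over Rpl3 (adjusted p = 0.858), 0.094 for Rpl7l1 over Rpl7 (0.700) and -0.014 for Rpl22l1 over Rpl22 (0.858). It was 0.0043 for Rpl39l over Rpl39 (0.927) and 0.105 for Rps27l over Rps27 (0.858), where the SD of the pair difference was 0.32 by night and 0.31 by day.

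**Figure D5:**
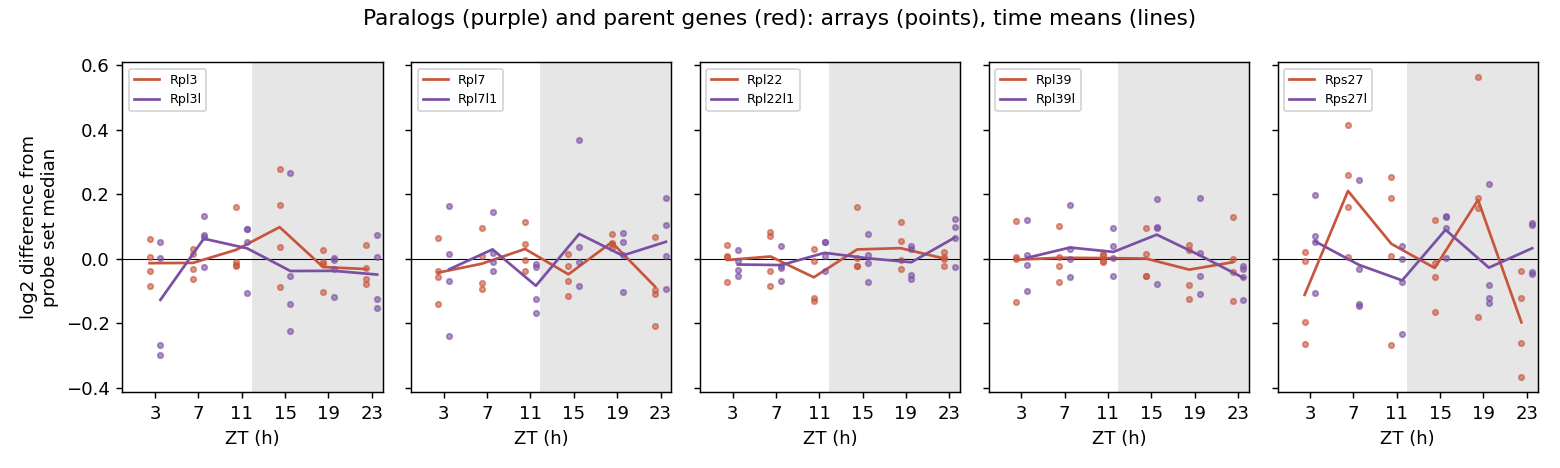
Log2 difference from the probe set median (vertical axis) of 5 paralogs (purple) and their parents (red) by zeitgeber time (horizontal axis, hours, grey for the dark), with points for arrays and lines for time means. The points of the 2 genes of a pair overlap, and Rps27 scatters most.

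Members differ in how many probe sets measure them. Of 68 members 44 rest on 1 probe set, Rpl15, Rpl28 and Rps4x among them. The other 24 rest on several, up to 8 in Rps12, of which 6 hold identical values. Among 23 members with distinct probe sets, 11 had night minus day of 1 sign in all and 12 of both signs, with a median gap of 0.048 and the widest, 0.19, in Rpl41. Ribosomal protein genes have many processed copies in the mouse genome, and whether probes also detect RNA of such copies was not tested. The SD within a time, pooled over the 6 times, had a median of 0.115 in the members and 0.096 over all genes.

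Genes that build and steer the ribosome were set beside its parts, by their counts in the rhythm test. Of ribosome biogenesis factors 5 of 55 passed, with a median amplitude of 0.061: Ubtf, the Pol I factor that marks rDNA (0.13 ± 0.024, SE, ZT 16.9), Nob1, which matures 18S rRNA (ZT 21.5), and Utp4 (ZT 19.9) peaked by night, Ncl, nucleolin (0.17 ± 0.034, SE, ZT 9.54), and Gar1, of the pseudouridine RNPs (ZT 5.41), by day. Elongation factors gave 2 of 8, Eef2k, the kinase that inhibits eEF2 (1.35-fold, ZT 10.6, adjusted p = 0.000202), and Eef2 itself (ZT 9.78, adjusted p = 0.0374). Initiation factors gave 3 of 30: Eif4b at ZT 11.3, Eif3b at ZT 8.34 and Eif3a at ZT 0.045. In mTORC1 and translation control 2 of 22 passed, Eif4ebp1, the repressor of cap-dependent initiation that mTORC1 inactivates (1.39-fold, ZT 12.2, adjusted p = 0.000101), and Larp4 (ZT 19.3). Mitochondrial ribosomal proteins gave 3 of 71, Mrpl34, Mrpl49 and Mrpl47, with peaks from ZT 21.4 to 22.1, and other cytosolic ribosome and nascent chain proteins 1 of 8, the ribosome-bound Serbp1 (ZT 5.02). These counts stand beside the 7.61% of all genes given above and carry no test of the lists.

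Markers of cell types were set beside the members by their calls in night against day. Over all genes 1.89% were called higher and 2.49% lower. Of 12 macrophage genes 5 were higher at night and 0 lower (median 0.14), and their mean per array ran from -0.25 to 0.043 by day and from -0.066 to 0.21 by night. Of 9 platelet genes 5 were higher and 0 lower (median 0.25), with array means from -0.18 to -0.050 by day and from -0.027 to 0.87 by night, the highest in ZT15 replicate 1. Ventricular cardiomyocyte genes gave 1 higher and 2 lower of 12 (median -0.041), and fibroblast genes 1 higher and 2 lower of 12 (median 0.050). Atrial genes gave 0 of 8 in limma (median 0.089), with 3 at an unadjusted p below 0.05. Neutrophil genes gave 1 higher and 0 lower of 11 (median -0.035). No call was made in 12 endothelial, 10 smooth muscle and pericyte, 2 red cell and 9 lymphocyte genes. Their medians were -0.042, -0.012, 0.010 and 0.0050. The part of these cells in the night values of Rpl29, Rpl28 and Rpl15 was not tested, and on centred values no marker can be called absent.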

How the data were processed

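Total RNA from 24 heart samples was extracted with TRIzol, and biotin-labelled cRNA from 500 ng was hybridised to Affymetrix arrays, per the labels' protocols. The authors deposited 1 log2 value per probe set and array, with the base assumed. Each probe set's median over the 24 arrays is 0 within 5e-07. How the arrays were summarised, corrected for background and normalized, and by which software, is not given in the sources used here. The number of arrays and the spread between replicates limit the precision, and signal over background is unknown. Of 34351 probe sets, 23521 named 1 gene, 1814 several and 9016 none in the platform annotation. A RefSeq gene table (GRCm38.p6) held 23328 of them and changed 0 symbols. Probe sets were averaged per gene. Tests were limma 3.58.1 under R 4.3.3, fitted on all 22180 genes with 18 residual degrees of freedom for the time means, and Benjamini-Hochberg adjustment at 0.05. The scripts were tested on simulated data. Members and gene lists were chosen with earlier results of these data known. Named genes were all called members, paralogs with parents, the P-stalk, the 5 largest and 2 smallest amplitudes of each subunit and 4 genes of each other list. Rpl34, Rpl14, Rpl19, Rpl41, Rpl27, Rps6, Rps18, Rpl35 and Utp4 were named after their values were seen. Alternatives were array subsets, weights, scaling, probe set choice, genes tested, a robust variance and a replicate block. Hybridisation batches are not given, so batch and time cannot be told apart.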

Additional observations from a re-analysis of the deposited data

Results flagged for a closer look

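In 180 groups of 4 arrays, over 29 named members, the mean of all members and 6 times, 10 held an array far from the other 3 by Dixon's ratio, or 5.56%, where chance flags about 1 in 20. Rpl15 was -0.510 in ZT07 replicate 4, with the others from -0.0555 to -4.1e-05. Rpl29 was -0.192 in ZT03 replicate 2 (others -0.14 to -0.13) and 0.191 in ZT23 replicate 4 (others 0.047 to 0.067). Rpl22 stood at 0.160 and Rplp1 at 0.230 in ZT15 replicate 1, while the other arrays reached 0.0014 in Rpl22 and -0.013 in Rplp1. Rplp0 reached 0.198 and Rps27l 0.231 in ZT19 replicate 1, with the others at or below -0.0553. Rpl3 was 0.161 in ZT11 replicate 1, against at most -0.0089 in the others. Rpl32 was -0.0631 in ZT07 replicate 3, the highest of its group (others -0.149 to -0.135), and Rps4l was -0.0418 in ZT07 replicate 4 (others 0.012 to 0.019).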

How the results depend on the processing

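The rhythm and night against day calls of Rpl29 held under every alternative and without each array, and no called difference changed direction. Of the paralog pairs, none of which passed, the difference took both signs over the settings for Rpl22l1 over Rpl22 (-0.025 to 0.0015) and Rpl39l over Rpl39 (-0.012 to 0.023). Rhythm counts ran from 1 (without ZT07 replicate 4) to 4 with an array left out, against 3 members. Leaving out arrays gave 1 to 3 calls for any time difference, 1 to 6 for night against day, 0 to 3 for ZT19 against ZT07, 0 to 1 for ZT15 against ZT03 and for ZT23 against ZT11, and 0 to 0 for dusk against dawn and for the paralog pairs. With the probe set of largest SD in place of a gene's mean, any time difference and ZT19 against ZT07 called 0 members (Rpl29 adjusted p = 0.209 and 0.177, the highest of its alternatives). Quantile normalization called 2 for ZT19 against ZT07, with Rpl15 added, and 4 for night against day. Without the 3 arrays of largest SD there were 4 rhythm and 4 night against day calls, and the 1 call for any time difference was Rpl15 in place of Rpl29. The cause of these shifts was not tested. Same-numbered arrays did not deviate together (median correlation -0.010 over 60 pairs of arrays, 0.0053 over 180 other pairs). Fitting the number as a replicate block left 2 calls, Rpl29 and Rps4x, for rhythm and for night against day, with Rpl15 at an adjusted p of 0.0516 and Rpl28 at 0.0543, and kept the counts of the other contrasts. Array weights, median centring, omission of duplicated probe sets, protein-coding genes only and robust variance kept every count. Over all pair settings the lowest adjusted p was 0.195. Signal over background is unknown, so a flat gene cannot be told from an undetected one.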
